A study of Oryctolagus cuniculus with 2 samples.

Results

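The myelin genes described here are those of the oligodendrocyte, the glial cell that wraps axons of the central nervous system. Of 9 listed genes (MBP, MOG, MAG, CNP, MOBP, OPALIN, UGT8, ERMN and ASPA), 6 had a probe set whose only symbol in the platform annotation was the gene's own, of 15605 genes that could be read this way. No probe set carried MBP, MAG or CNP as its only symbol, so these 3 genes were not analysed here. Probe sets were matched to the list by gene name alone. In the retina of a rabbit with retinal vein occlusion (RVO), 5 of the 6 measured genes had a lower signal than in the control retina, and the sixth, MOG, had nearly the same signal. Of all genes past a signal limit, 56.0% had a lower signal, and each condition was read on 1 array. The largest difference was that of OPALIN, whose signal in the RVO array was 48.6% of that in the control array.

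Total RNA of an untreated retina and of a retina with RVO, both from day 7 and both from Dutch rabbits, was read on a pair of Rabbit Gene 1.0 ST arrays, 1 for each retina. An argon laser was used to close retinal veins of the right eye, and fellow eyes without laser treatment supplied the controls. The laser-irradiated region was punched out of the retina before the RNA was taken, so the array reports the remaining tissue. Whether the same region was removed from the control retina, and whether the pair of retinas on these arrays came from a single rabbit, is not stated in the sources used here.

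Myelin is a stack of oligodendrocyte membrane, rich in galactolipid and cholesterol and held together by a small set of proteins that few other cells make. It insulates the axon between the nodes of Ranvier, where the sodium channels of the axon are gathered. The retina of most mammals has no myelin, since ganglion cell axons acquire their sheath only behind the eye. The rabbit is an exception, with bands of myelinated axons, the medullary rays, that spread from the optic disc on both sides together with the retinal vessels.

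Values are log2 signals after RMA, a method that subtracts background, forces a common distribution on the arrays and condenses the probes of a set into a single value. Differences are RVO minus control on this scale, so that a value of 1 is a 2-fold change. The signal limit follows the study's methods. Genes were kept when the higher of their signals was at least 5, which left 12724 genes. All 6 myelin genes passed this limit on both arrays. Over all probe sets the arrays had median signals of 6.25 (control) and 6.23 (RVO). Each condition was measured on 1 array, so there is no replicate error, no difference was tested, and genes are described by size alone. For 118 genes more than 1 probe set passed the limit, and probe sets of the same gene disagreed in their difference by a pooled SD of 0.19, which covers disagreement between probe sets but not the arrays or the animals.

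Of the 6 genes, 5 had a difference below 0, against 56.0% of all genes. Of the 6, 1 was lower by over 2-fold, against 0.479% of all genes, and none was higher by over 2-fold, against 3.50%. The median difference of the 6 genes was -0.57, or 0.674-fold, while the median of all genes was -0.04. Since this is RNA of whole tissue, fewer oligodendrocytes and less myelin RNA in each of them cannot be told apart. Nor can they be told from a difference in the tissue taken. Removal of the punched-out region from the control retina is not stated, and all 9 measured skeletal muscle genes were higher by over 2-fold in the RVO array. Whether the tissue taken differed was not tested.

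**Figure D1:**
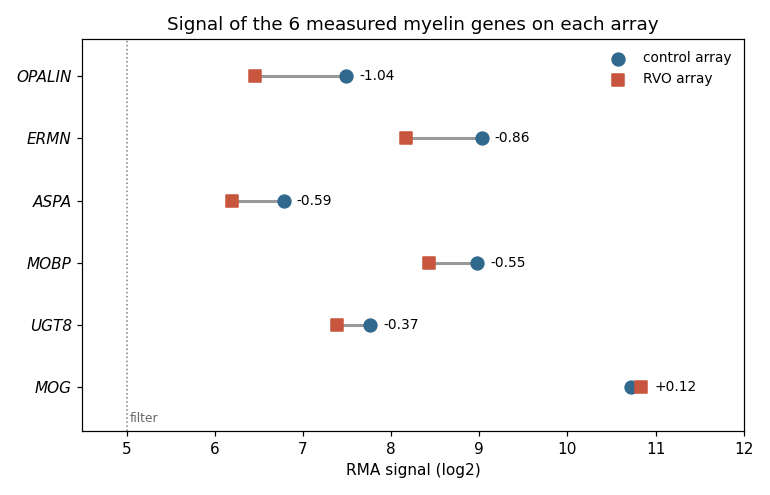
RMA signal (log2) of the 6 measured myelin genes on the control array (circles) and the RVO array (squares), 1 array each, with RVO minus control beside each pair and the signal limit of 5 as a dotted line. The RVO square lies to the left of the control circle for 5 genes, with differences from -1.04 to -0.37, and slightly to the right of it for MOG, at 0.12.

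OPALIN encodes a glycoprotein that spans the membrane of oligodendrocytes and of the myelin loops. On the control array its log2 signal was 7.49 and on the RVO array 6.45. The difference of -1.04 was the lowest of the 6 genes, and 0.401% of all genes had a lower one. It lay close to the 2-fold limit, at -0.9996 when a trend of the difference with signal was removed, and at -0.99 when the median difference of all probe sets was set to 0. OPALIN also stands in the list of genes beyond 2-fold that the study itself made from these arrays, so its place beyond the limit is not independent evidence.

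MOBP encodes a small basic protein of compact myelin that lies between the cytoplasmic faces of the membrane. It gave log2 signals of 8.98 (control) and 8.43 (RVO), a difference of -0.55, or 0.682-fold. Of all genes, 3.83% had a lower difference.

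MOG encodes a protein of the immunoglobulin superfamily on the outermost surface of the sheath, where it is a target of antibodies in demyelinating disease. The log2 signal was 10.72 in the control and 10.84 in RVO, a difference of 0.12, or 1.09-fold. The difference was smaller than the SD of 0.19 between probe sets of a gene, and 72.3% of all genes had a lower one. MOG was thus the only measured member without a lower signal in the RVO array. Among RefSeq genes of assembly mOryCun1.1, MOG overlaps ZFP57, which encodes a zinc finger protein of imprinting, and whether probes of the MOG set lie in the overlap is not stated in the sources used here. The probe set of ZFP57 had log2 signals of 8.51 and 8.34, a difference of -0.17. The models of the other 5 genes overlapped no coding gene in that table.

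ERMN encodes ermin, an actin-binding protein that appears late in the maturation of oligodendrocytes. The control array gave a log2 signal of 9.03 and the RVO array one of 8.17. The difference of -0.86, or 0.552-fold, was the second lowest of the 6, and 0.841% of all genes had a lower one.

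UGT8 and ASPA encode enzymes. UGT8 transfers galactose to ceramide and so makes galactosylceramide, the characteristic lipid of myelin. Its log2 signals were 7.76 in the control and 7.39 in RVO, and 10.4% of all genes had a difference below its -0.37, or 0.773-fold. ASPA encodes aspartoacylase, which splits N-acetylaspartate made by neurons into aspartate and acetate and is deficient in Canavan disease. Its log2 signals were 6.78 in the control and 6.20 in RVO, and 3.02% of all genes had a difference below its -0.59, or 0.666-fold.

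**Figure D2:**
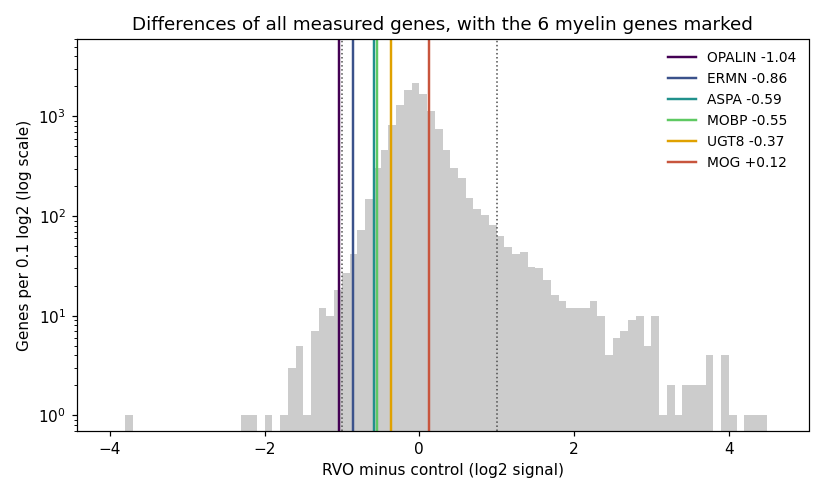
Number of genes (log scale) in bins of 0.1 of the log2 difference RVO minus control, for 12724 genes, with coloured lines at the 6 myelin genes and dotted lines at 2-fold. Lines of 5 genes stand on the left flank of the distribution, between -1.04 and -0.37, and that of MOG stands at 0.12, near the centre.

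The 6 differences spanned 1.16 on the log2 scale, with an SD between genes of 0.40. The widest gap between neighbours in the order was that of 0.49 between UGT8 and MOG. ASPA and MOBP were 0.03 apart, which is within the SD between probe sets, and so were the gaps of 0.186 between OPALIN and ERMN and of 0.180 between MOBP and UGT8. That SD is of the difference of a single gene, while a gap holds the spread of both genes. The wider gaps are therefore not shown to be resolved. At a limit of 1.5-fold, 3 of the 6 genes were lower (OPALIN, ERMN and ASPA), against 3.03% of all genes, and ASPA lay at that limit and inside it, at -0.57, with the arrays centred on their medians. Proteins and enzymes of myelin were found on both sides of the median of the 6, so the order of the differences did not follow this division of roles.

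Other myelin and mature oligodendrocyte genes, 40 in the list, had a median difference nearer to 0. Of 32 that were measured past the limit, 24 had a difference below 0, 0 were lower and 2 were higher by over 2-fold, and the median was -0.14. With the median difference of all probe sets set to 0, 20 of the 32 were below 0, beside 48.2% of all genes and the same 5 myelin genes. The lowest were FA2H, which hydroxylates the fatty acids of myelin lipids, at -0.66, and MAL, a proteolipid of myelin and of epithelia, at -0.61. Next came TPPP at -0.53, and BCAS1 and ST18, both at -0.43. No gene of this list was lower than OPALIN or ERMN, 2 were lower than ASPA and MOBP, and 6 were lower than UGT8. The 2 genes higher by over 2-fold were GSN, which encodes the actin-severing protein gelsolin, at 1.51, with log2 signals of 7.31 and 8.82, and CD9, a tetraspanin, at 1.25, with 7.28 and 8.53. Both are known from many cell types besides oligodendrocytes, macrophages included. PMP22, a protein of peripheral myelin and of other cells, at 0.92, the iron carrier TF at 0.60 and CLDN11, the claudin of the myelin sheath, at 0.59 followed. PMP22, TF and CLDN11, and likewise TPPP, BCAS1 and ST18, were singled out after their values were seen. Since the list holds genes that other cells also express, its median is not a value of oligodendrocytes alone.

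**Figure D3:**
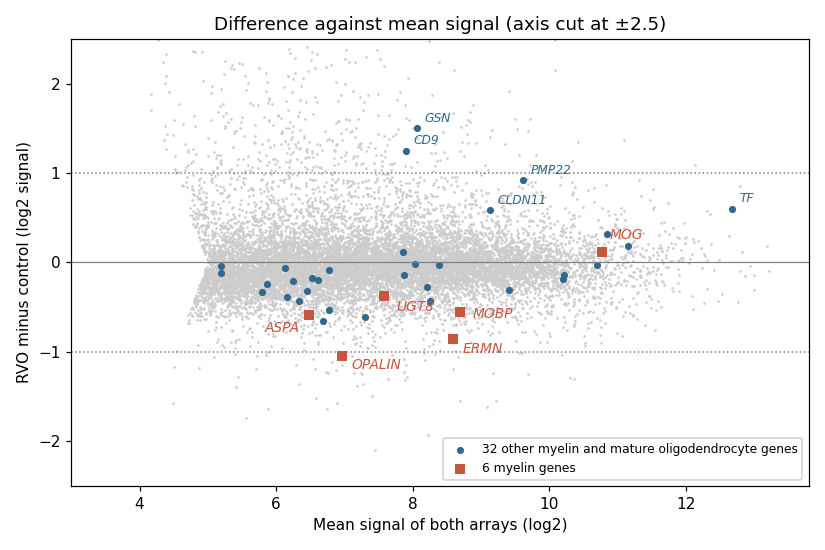
RVO minus control (log2) against the mean log2 signal of both arrays, with all 12724 genes in grey, 32 other myelin and mature oligodendrocyte genes as blue circles and the 6 myelin genes as red squares; dotted lines mark 2-fold, and the vertical axis ends at 2.5 on each side. The blue circles lie mostly just under 0, with GSN and CD9 above 2-fold. Of the red squares, 5 lie below 0, down to OPALIN at -1.04, and 6 blue circles are lower than UGT8.

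Transcription factors of the oligodendrocyte lineage, which establish the cell type and switch on its myelin genes, had differences of both signs. Of 11 measured, none was beyond 2-fold, 7 were below 0 and the median was -0.10, with a range from -0.53 to 0.49. SOX10, which is required for terminal differentiation, had log2 signals of 5.51 and 5.46, and MYRF, the direct activator of myelin genes, had 6.10 and 6.12. OLIG2 differed by -0.10 and OLIG1 by -0.39. The lowest were ZNF488 at -0.53 and MYT1, a zinc finger protein of neural progenitors, at -0.43, and the highest were YY1 at 0.13 and SOX9, which Müller glia also express, at 0.49. The differences of SOX10, MYRF and OLIG2 were within the SD of 0.19 between probe sets. SOX10 lay near the signal limit of 5, and MYRF below the array medians of 6.25 (control) and 6.23 (RVO). These values therefore do not show that the factors were unchanged.

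Genes of oligodendrocyte precursors, the dividing cells from which oligodendrocytes arise, were measured past the limit in 7 of 12 cases, with 4 below 0 and a median of -0.29, or -0.10 with a signal limit of 6. TNR, which encodes the matrix protein tenascin-R, was the only one beyond 2-fold, at -1.10, with log2 signals of 8.73 and 7.63. It is made by oligodendrocytes and by some neurons. PDGFRA, a receptor used to mark the precursors, had 6.26 and 5.86, a difference of -0.41. In RNA of whole retina this value cannot be assigned to the precursors alone. CSPG4 and GPR17, further markers of these cells, stayed under the signal limit on both arrays, with 4.68 and 4.20 for CSPG4 and 4.85 and 4.65 for GPR17.

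The 2 enzymes among the members belong to short pathways whose other genes were read from the same arrays. Of 12 measured enzymes of myelin lipid synthesis, UGT8 among them, 8 were below 0 and none was beyond 2-fold, with a median of -0.28, or -0.18 without the genes that another list holds, UGT8 included. FA2H and UGT8, which act in sequence on the way to hydroxylated galactosylceramide, differed by -0.66 and -0.37, and HMGCS1, an early enzyme of cholesterol synthesis, by -0.60. The highest were SGMS1, which makes sphingomyelin, at 0.37, and ELOVL1, which lengthens fatty acids, at 0.36. Among 12 measured genes of myelin lipid breakdown and of the use of acetate from N-acetylaspartate, 5 were below 0 and none was beyond 2-fold, with a median of 0.17, or 0.30 without ASPA. ASPA was the lowest of them. SLC13A3, a carrier that takes up N-acetylaspartate, followed at -0.24. The lysosomal genes HEXA at 0.61 and PSAP at 0.46 were the highest, and GALC, which removes the galactose that UGT8 adds, differed by -0.07.

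The sheath is held by the axon at the paranode, next to the node of Ranvier. Of 16 measured genes of paranode and node, 14 were below 0 and 2 were lower by over 2-fold, with a median of -0.39. The 2 genes were KCNA2, a potassium channel that lies under the sheath beside the paranode, at -1.64, with log2 signals of 7.57 and 5.93, and CNTNAP1, the axonal adhesion protein Caspr of the paranode, at -1.19, with 7.17 and 5.97. Both are known as genes of neurons. OPALIN was lower than all but these 2 genes of the list, and MOG was higher than 15 of its 16 genes.

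Genes of the retinal ganglion cell, the neuron whose axons are myelinated, were lower in the RVO array more often than not. Of 18 measured, 16 were below 0 and 8 were lower by over 2-fold, with a median of -0.87. The 8 genes were NRN1, SLC17A6, NEFH, CHRNA6, CHRNB3, INA, NEFL and POU4F1, with differences from -3.73 to -1.004. POU4F1 lay at the limit, and 7 genes were lower by over 2-fold under each of 3 rescalings of the arrays and with the trend with signal removed. NEFH, the heavy neurofilament of thick axons, had log2 signals of 8.50 and 6.39. Of these 18 genes, 7 were lower than OPALIN, 9 lower than ERMN and 17 lower than MOG. The list was written with the study's list of genes beyond 2-fold known and holds genes from it, so its count is no independent evidence, and whether its median differs from that of the myelin genes was not tested.

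**Figure D4:**
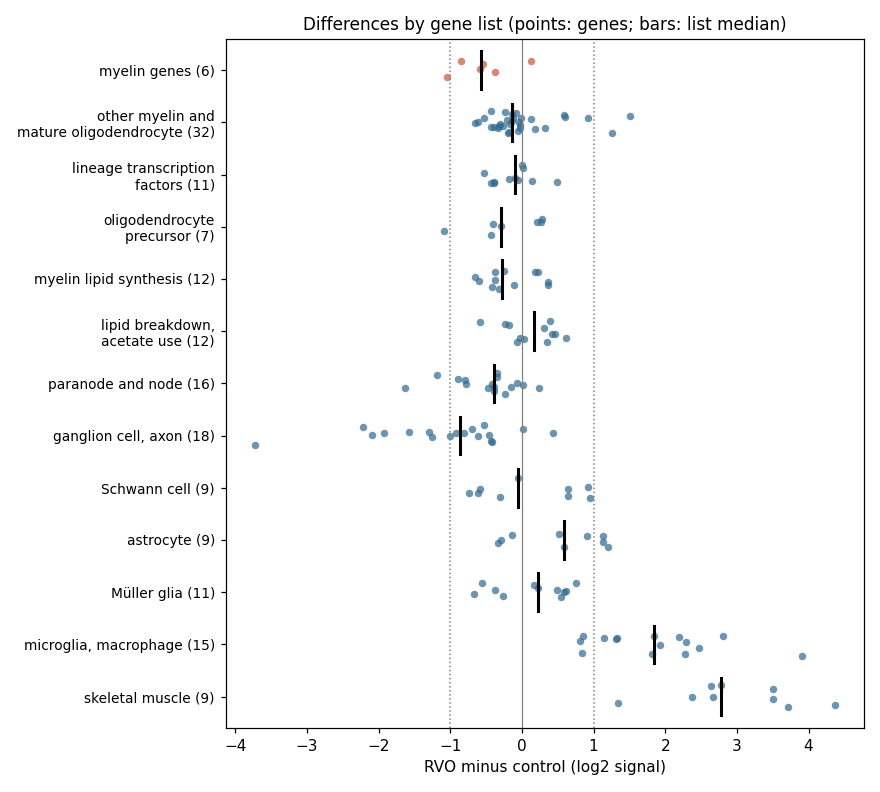
Log2 difference RVO minus control of each measured gene (points) in 13 gene lists, with the number of genes past the signal limit in brackets, the median of each list as a black bar and dotted lines at 2-fold; vertical scatter within a list has no meaning, and some genes are in more than 1 list. The median of the myelin genes, -0.57, lies between those of the paranode and node list, -0.39, and the ganglion cell list, -0.87, while the medians of macrophage and muscle genes are 1.85 and 2.78.

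Markers of other cells differed between the arrays too. The retina itself was represented by Müller glia, the radial glia of the retina, whose 11 genes all had log2 signals of at least 7.57 in the control array. Their differences ran from -0.67 for RLBP1 and -0.56 for GLUL to 0.61 for SLC1A3 and 0.76 for CRYM, with a median of 0.23. Of 9 astrocyte genes, 3 were higher and 0 were lower by over 2-fold, 3 were below 0, and the median was 0.59. The higher genes were GFAP, an intermediate filament, at 1.20, NDP at 1.13 and FABP7 at 1.13. The lowest were SLC1A2 at -0.34 and ALDH1L1 at -0.29. AQP4 is in this list and in that of Müller glia.

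Of 15 measured genes of microglia and macrophages, the phagocytes that take up myelin debris, 12 passed 2-fold upwards and all 15 were above 0, with a median of 1.85. The 3 others, CX3CR1, TREM2 and C1QB, differed by 0.81 to 0.86. The summed linear signal of the list was 1199 on the control array and 4624 on the RVO array. All 9 measured skeletal muscle genes were higher by over 2-fold, from 1.33 for CKM to 4.36 for MYL1, with summed linear signals of 536 and 4481. The summed linear signal of the 6 myelin genes was 3215 on the control array and 2789 on the RVO array, of which MOG alone made up 1683 and 1829. The part of macrophage and muscle RNA in the differences of the myelin genes was not tested.

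Nerves of muscle carry peripheral myelin, whose Schwann cells also use some genes of the central sheath. Of 9 measured Schwann cell genes none was beyond 2-fold and 5 were below 0, with a median of -0.06. With the trend with signal removed the median was 0.04 and 1 gene was higher by over 2-fold, and with a signal limit of 6 the median was -0.31. PMP2 had log2 signals of 3.42 and 3.37, under the limit on both arrays, and PRX, the periaxin of the peripheral sheath, had 5.24 and 5.18. The lowest were SCN7A at -0.74 and MAL, and the highest were PMP22 and CDH19, a cadherin of Schwann cell precursors, at 0.94 from a control signal of 4.87. The summed linear signal of the list was 1261 on the control array and 1732 on the RVO array, and without PMP22 it was 690.2 and 650.0, an alternative added after seeing the data. The part of Schwann cell RNA in the values of the myelin genes was not tested.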

How the data were processed

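The data are 2 arrays, 1 of control and 1 of RVO retina. Per the methods, the authors ran RMA in R, and the log2 signals they deposited were used without further scaling. Of 26193 probe sets, 15816 had 1 gene symbol in the platform annotation, 376 had several and 10001 had none, and only those with 1 symbol were named. Where a gene had several probe sets, that with the highest mean signal stood for it, and each of the 6 measured members had 1. The gene identifiers of all 6 were found among RefSeq genes of assembly mOryCun1.1. Gene overlaps and flanking coding genes were read from these, and only the overlaps are described here.

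Members and gene lists were chosen with earlier results of these data known. Besides all members, genes beyond 2-fold were named, or else the 2 lowest and the 2 highest of a list, and a few lineage markers; the macrophage list is given by counts, and some pathway genes were named for their role with their values seen. With 1 array per condition no test was run. Calculations were checked on simulated data and used Python 3.11.15, pandas 2.3.3 and statsmodels 0.14.6. Alternatives were the probe set rule, the signal limit, the scaling of the arrays and the fold limit.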

Additional observations from a re-analysis of the deposited data

How the results depend on the processing

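Under 3 rescalings of the arrays, 5 of 6 myelin genes stayed below 0 and 0 were higher by over 2-fold. The same held with the trend of the difference with signal removed. A signal limit of 6 or none and the mean over probe sets could not change these counts. Each of the 6 genes has 1 probe set and signals above 6 on both arrays. The share of all genes below 0 was 48.8% with the trend removed. The median of the 6 genes ranged from -0.57 to -0.52. The number lower by over 2-fold was 1, but 0 after removal of the trend with signal and 0 with the median difference of all probe sets set to 0, an alternative added after seeing the data, since OPALIN lies at the limit. It was 3 at a limit of 1.5-fold and 0 at 3-fold. MOG ranged from 0.11 to 0.17. Without OPALIN, also added later, the median was -0.55 and 4 genes were below 0, a count fixed by leaving out a gene below 0. With a signal limit of 6, which leaves fewer genes, the median of the precursor list was -0.10 and that of the Schwann cell list -0.31. No paired analysis was possible because each condition has 1 array. No value has a replicate error, so a difference of any size cannot be told from variation between arrays or animals. The SD of 0.19 covers disagreement between probe sets only.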
